A study of Homo sapiens with 6 samples.

Results

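The genes described here encode the FOS and JUN subunits of the transcription factor AP-1 and the small MAF proteins, 10 of the 20683 genes that the count files list. They were chosen by symbol and comprise 4 FOS genes (FOS, FOSB, FOSL1 and FOSL2), 3 JUN genes (JUN, JUNB and JUND) and 3 small MAF genes (MAFF, MAFG and MAFK). All 10 were found. Their counts were set between HT-1080 cells treated for 24 h with the IRAK4 inhibitor SLV-8472-01, at a concentration that the labels give as 5 mM and that could not be checked here, and HT-1080 cells treated for 24 h with 0.1% DMSO. Each group had 3 libraries, numbered 1 to 3, described by the series as biological replicates. HT-1080 is a human fibrosarcoma line with an activating NRAS mutation, so all groups share that background and the results are those of 1 line.

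AP-1 proteins bind DNA as dimers through a basic region and a leucine zipper. JUN proteins pair with each other or with FOS proteins, whereas FOS proteins need a JUN partner, and the dimers bind the sequence TGACTCA or the related TGACGTCA in promoters and enhancers of genes for growth, invasion and stress responses. The FOS and JUN genes are themselves early targets of growth factor and RAS signalling through ERK and JNK kinases. FOSL1, which encodes FRA-1, is known for its stable expression in RAS-transformed and invasive cells. Small MAF proteins have the same kind of zipper but no transactivation domain. They act as obligate partners of the CNC factors, such as NRF2, which activate antioxidant genes, and of the BACH factors, which repress them, at sites that contain TGACNNNGC.

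Promoters that carry such letters are shown for the genes concerned, since these factors are known to bind promoters of their own family. RefSeq promoter sequences (GRCh38.p14) were found for 8 of the 10 genes, and the 250 bases before each start site were searched on both strands. None of the 8 genes held TGACTCA, which was present in 4.2% of 35116 promoter windows of the same length. JUND and MAFF held TGACGTCA (1.65% of windows) and TGACNNNGC (10.9%), and JUN held TGACATCA (2.37%). None held a CArG box, the site of serum response factor (1.16%), within these 250 bases. Sequence further upstream was not searched, so a site there, in FOS or any other gene, would be missed. In the windows of JUN (chr1:58784048-58784297, minus strand), JUND (chr19:18281623-18281872, minus strand) and MAFF (chr22:38201744-38201993, plus strand, the first of its 2 windows), capitals mark these motifs. In JUND the matches are TGACNNNGC, TGACGTCA and a second TGACNNNGC on the opposite strand, and in MAFF they are TGACNNNGC on the opposite strand and TGACGTCA. The letters describe the sequence only.
JUN: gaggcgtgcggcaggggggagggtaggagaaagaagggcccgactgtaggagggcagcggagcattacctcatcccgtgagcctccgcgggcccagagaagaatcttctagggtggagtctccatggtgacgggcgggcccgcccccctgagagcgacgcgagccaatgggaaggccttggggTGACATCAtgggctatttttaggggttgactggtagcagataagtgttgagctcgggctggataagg
JUND: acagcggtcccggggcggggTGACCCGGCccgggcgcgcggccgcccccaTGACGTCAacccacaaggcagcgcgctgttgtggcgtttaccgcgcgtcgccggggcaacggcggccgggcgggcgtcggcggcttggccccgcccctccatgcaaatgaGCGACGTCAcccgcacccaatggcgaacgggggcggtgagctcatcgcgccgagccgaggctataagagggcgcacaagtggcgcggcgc
MAFF: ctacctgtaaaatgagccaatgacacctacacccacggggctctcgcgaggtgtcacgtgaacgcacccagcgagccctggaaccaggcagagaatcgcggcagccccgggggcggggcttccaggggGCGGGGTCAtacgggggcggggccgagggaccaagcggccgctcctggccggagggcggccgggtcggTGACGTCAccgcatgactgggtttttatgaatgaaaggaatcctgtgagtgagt

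The libraries held 9162281 to 13184553 counts, and 11216 genes had enough counts to be tested. The fibrosarcoma label was met by the markers VIM (5311 to 6454 CPM, counts scaled to library size), MMP14 and FN1. Of the 8 mesenchymal markers, S100A4 (2.53 to 3.57 CPM) and CD44 (8.36 to 12.5 CPM) had the fewest counts. CDH1, KRT5, PTPRC, CD3E and VWF were at 0 in every library, while the endothelial marker PECAM1 had 0.782 to 2.12 CPM. Summed levels were 8703 to 9000 CPM in inhibitor libraries and 8397 to 9493 CPM in DMSO libraries for 8 mesenchymal markers. For 5 epithelial markers the sums were 1.14 to 1.87 CPM with inhibitor and 0.547 to 0.913 CPM with DMSO, nearly all from CLDN4, and their part in the results was not tested. Sums of the leukocyte and endothelial lists overlapped between the groups and reached at most 2.20 CPM. In bulk RNA, fewer cells with a transcript and less of it per cell cannot be told apart. The library DMSO 3 stood apart within its group: its median absolute log2 difference was 0.317 from DMSO 1 and 0.248 from DMSO 2. DMSO 1 and 2 differed from each other by 0.156, and the inhibitor libraries by 0.122 to 0.130. From the inhibitor libraries DMSO 3 differed by 0.240 to 0.248, no more than DMSO 1 (0.243 to 0.273), and DMSO 2 by 0.204 to 0.217. The panel reads each gene through a short amplified product, so levels are compared between libraries and never between genes. Few counts can mean little transcript or a poorly amplified product: NACA, a gene of a ribosome-associated complex found in all cells, had 0 to 3 counts in every library.

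No AP-1 or small MAF gene passed the edgeR test with all 6 libraries and the filter on low counts. Of the 10 genes, 8 were tested, and edgeR's quasi-likelihood test called 0 of them at a Benjamini-Hochberg adjusted p under 0.05, where it called 3.87% of all tested genes, 219 higher and 215 lower (335 and 163 when scaled by library totals only). FOSB and MAFK had an unadjusted p under 0.05, as did 19.5% of all tested genes. DESeq2 (5.3% of all genes called) and limma-voom (3.96%) also called 0. With all 6 libraries, edgeR with no filter on low counts called FOSB (5.32% of all genes called), and limma-voom with library quality weights called 4 of the 8 (23.2%). Fold changes were small for 6 of the 8, between -0.26 and 0.25 on the log2 scale, with a median of -0.205 over the 8, beside -0.00438 over all tested genes. Groups did not overlap in 2 of the 8 tested genes, FOSL2 and MAFK, both lower with inhibitor, where 25.5% of all tested genes did not overlap, 11.8% lower and 13.7% higher.

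**Figure D1:**
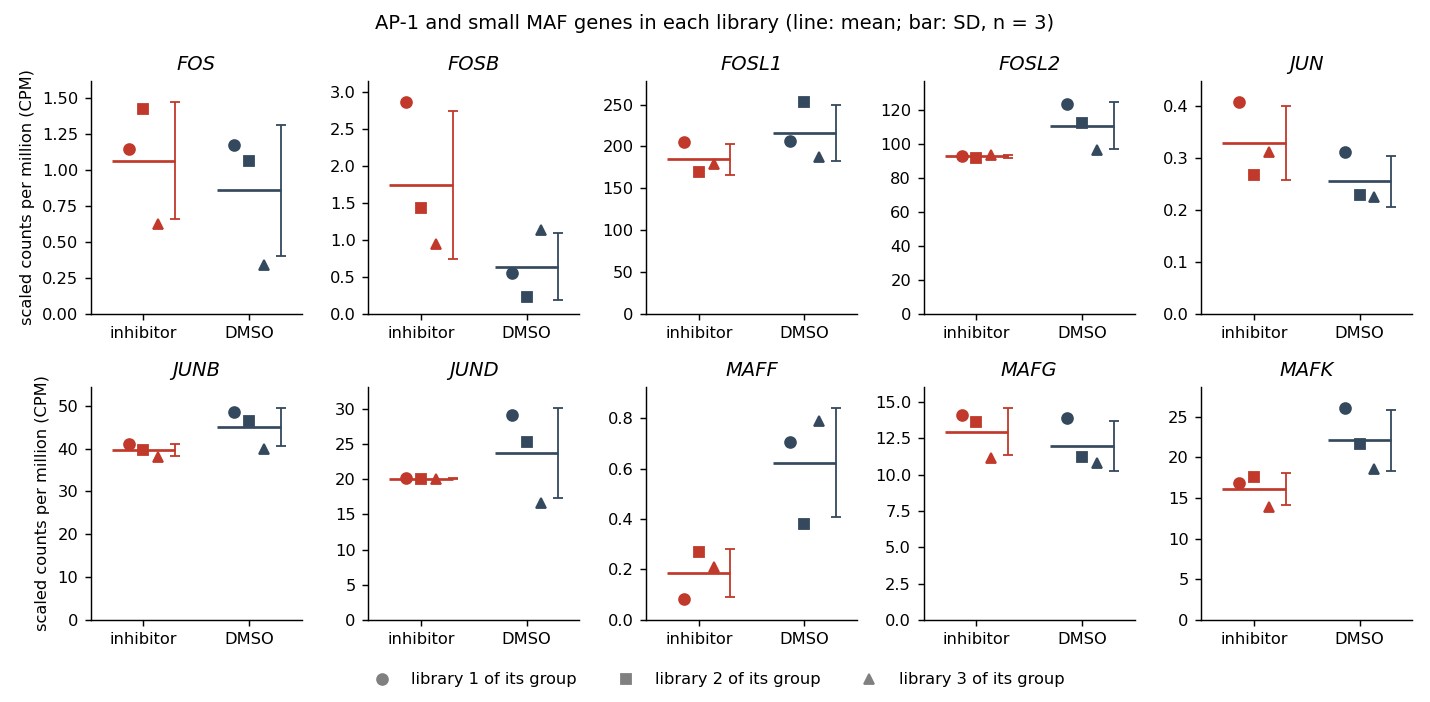
CPM (vertical axes, from 0, one scale per gene) of the 10 genes in the 3 inhibitor and 3 DMSO libraries, with symbols for library 1, 2 and 3, a line at the mean and a bar for the SD. FOSL2, MAFF and MAFK are lower in all 3 inhibitor libraries than in any DMSO library, and JUND in DMSO 3 (16.6 CPM) lies below all inhibitor libraries.

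Among the FOS genes, FOSL1 and FOSL2 were well counted and FOS and FOSB were near the limit of detection. FOSL1 had 205, 169 and 178 CPM in inhibitor 1 to 3, against 207, 253 and 188 CPM in DMSO 1 to 3. Inhibitor 1 lay among the DMSO libraries and the other two inhibitor libraries below them, so the groups overlapped. Its log2 fold change was -0.23 (SE 0.136, edgeR adjusted p = 0.382), a fold of 0.854 with a 95% interval of 0.698 to 1.05.

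FOSL2, which encodes FRA-2, had 92.6, 91.8 and 93.1 CPM in the inhibitor libraries, against 124, 112 and 96.2 CPM in the DMSO libraries. All 3 inhibitor values were lower than every DMSO value and lay within 0.0201 of each other on the log2 scale, while the DMSO values spread over 0.362, with DMSO 3 closest to the inhibitor libraries. Its log2 fold change was -0.26 (SE 0.126, edgeR adjusted p = 0.275), a fold of 0.835 (95% interval 0.692 to 1.01).

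FOS itself, the founding member and a classical immediate-early gene, had 14, 16 and 6 counts in the inhibitor libraries, against 15, 14 and 3 counts in the DMSO libraries. Library 3 was the lowest in both groups, and the groups overlapped fully. The edgeR log2 fold change was 0.25 (SE 0.445, adjusted p = 0.809). Its 95% interval runs from 0.614-fold to 2.31-fold, so at this depth the direction of any difference cannot be read.

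FOSB had 35, 16 and 9 counts with inhibitor, against 7, 3 and 10 counts with DMSO. Inhibitor 1 and 2 were the highest, and DMSO 3 was above inhibitor 3, so the groups overlapped. In CPM the values were 2.86, 1.43 and 0.935 with inhibitor and 0.547, 0.228 and 1.12 with DMSO. The edgeR log2 fold change was 1.60 (SE 0.525, adjusted p = 0.108), a fold of 3.03 with a 95% interval of 1.39 to 6.62. It rested on few reads and on single libraries: it was 1.02 (adjusted p = 0.469) without inhibitor 1, and 2.17 (adjusted p = 0.00382) without DMSO 3. FOSB also passed when no filter on low counts was applied, at 1.58 (adjusted p = 0.00903), a setting in which 5.32% of 15625 genes were called.

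JUNB and JUND did not pass with all 6 libraries. JUNB, which encodes a subunit that in fibroblasts is known to restrain JUN-driven growth, had 41.1, 39.8 and 38.1 CPM with inhibitor, against 48.5, 46.5 and 40.0 CPM with DMSO. DMSO 3 lay inside the inhibitor range, while DMSO 1 and 2 lay above it. Its log2 fold change was -0.18 (SE 0.128, edgeR adjusted p = 0.466), a fold of 0.881 (95% interval 0.728 to 1.07).

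JUND, the JUN gene with the most constant expression in most tissues, had 20.2, 20.0 and 20.1 CPM with inhibitor, against 29.2, 25.3 and 16.6 CPM with DMSO. The inhibitor libraries were within 0.0143 of each other on the log2 scale, and the DMSO libraries lay on both sides of them, DMSO 1 and 2 above and DMSO 3 below. The log2 fold change was -0.25 (SE 0.18, edgeR adjusted p = 0.489), a fold of 0.843 (95% interval 0.645 to 1.1).

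JUN, which encodes c-JUN and whose promoter holds TGACATCA as shown above, had 5, 3 and 3 counts with inhibitor, against 4, 3 and 2 counts with DMSO. It was left out of the test for too few counts. The ratio of summed counts, 11 with inhibitor over 9 with DMSO and scaled for library size, was 1.29 with an exact 95% interval of 0.485 to 3.51 that covers counting error only. No difference was detectable at this depth, and the level of c-JUN transcripts cannot be read from so few counts.

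Of the small MAF genes, MAFK had the lowest fold change, and it was also the lowest among all tested FOS, JUN and small MAF genes. It had 16.8, 17.6 and 13.8 CPM with inhibitor, against 26.0, 21.7 and 18.6 CPM with DMSO. Every inhibitor value was below every DMSO value, with inhibitor 2 and DMSO 3 closest to each other. The log2 fold change was -0.46 (SE 0.163, edgeR adjusted p = 0.134), a fold of 0.727 with a 95% interval of 0.571 to 0.927. This interval does not allow for the number of genes tested.

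MAFG, whose protein is a common partner of NRF2, had 14.1, 13.6 and 11.1 CPM with inhibitor, against 13.9, 11.2 and 10.8 CPM with DMSO. The groups overlapped, with 1 high library among the DMSO ones and 1 low library among the inhibitor ones. The log2 fold change was 0.11 (SE 0.168, edgeR adjusted p = 0.766), a fold of 1.08 (95% interval 0.843 to 1.39).

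MAFF, an inducible small MAF gene with TGACGTCA in its promoter as shown above, had 1, 3 and 2 counts with inhibitor, against 9, 5 and 7 counts with DMSO. All inhibitor counts were below all DMSO counts, but it was left out of the test for too few. The ratio of 6 summed counts with inhibitor over 21 with DMSO, scaled for library size, was 0.301 with an exact 95% interval of 0.0993 to 0.770, for counting error only. When no filter was applied, the edgeR log2 fold change was -1.70 and did not pass (adjusted p = 0.202). In the RefSeq annotation MAFF, MAFK and JUNB overlap TMEM184B, TMEM184A and HOOK2, which the panel also reads and whose log2 fold changes were -0.04, 0.11 and -0.07. No source used here places the amplified products within or outside these overlaps.

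Which genes passed depended on DMSO 3. Without that library edgeR called 5 of the 8 tested genes, beside 21.9% of all tested genes (10.8% higher and 11.1% lower). FOSB was higher, at a log2 fold change of 2.17 (SE 0.538, adjusted p = 0.00382). MAFK fell by 0.58 (SE 0.141, adjusted p = 0.0034), JUND by 0.45 (SE 0.129, adjusted p = 0.0109), FOSL2 by 0.37 (SE 0.101, adjusted p = 0.00889) and FOSL1 by 0.33 (SE 0.106, adjusted p = 0.0234). JUNB was at -0.27 (adjusted p = 0.0803), and MAFG and FOS stayed near 0, at 0.04 and -0.06. Only 2 DMSO libraries remain in that comparison. Leaving out any other single library gave 0 calls among the 8, with 99 to 426 genes called among all tested.

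**Figure D2:**
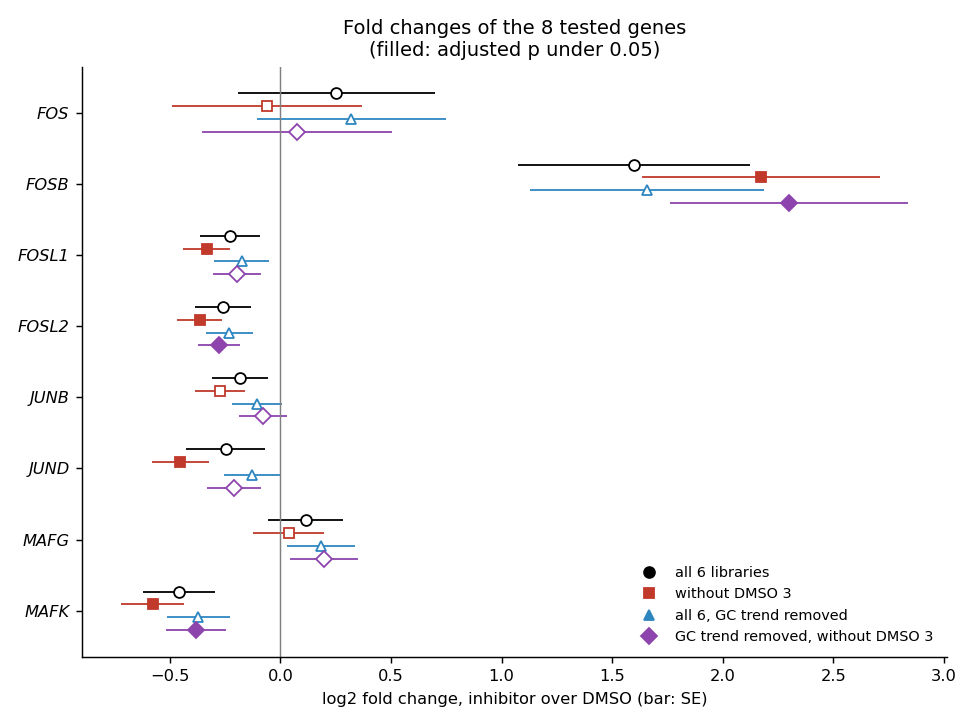
Log2 fold change of inhibitor over DMSO (horizontal axis, bars of 1 SE) for the 8 tested genes with all 6 libraries, without DMSO 3, with each library's GC trend removed, and with both, where filled symbols passed an adjusted p of 0.05. No symbol is filled with all 6 libraries, and FOSB, FOSL1, FOSL2, JUND and MAFK are filled without DMSO 3.

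These genes have GC-rich transcripts, and DMSO 3 differed from the other DMSO libraries along GC content. Mean GC content of the annotated transcripts was 56.5% for FOSL2, 60.5% for FOSL1, 61.5% for MAFG, 64.8% for MAFK, 64.9% for JUNB and 69.7% for JUND, against a median of 49.3% over tested genes. GC content of the amplified products themselves was not available. DMSO 3 minus the mean of DMSO 1 and 2 was between -0.70 (JUND) and -0.20 (MAFG) on the log2 scale for these 6 genes. FOS, FOSB, JUN and MAFF were left out for their few counts, with GC contents of 59.9%, 59.1%, 56.7% and 61.8%. For them the difference was -1.33, 1.27, -0.15 and 0.46, so FOSB and MAFF were higher in DMSO 3, opposite to the 6 genes. Over all well-counted genes the median of this difference was 0.301 at 35 to 40% GC and -0.20 at 55 to 60% GC. It was -0.29 at 60 to 65% GC and -0.35 at 65 to 70% GC. The Spearman correlation of a library's deviation from its group mean with GC content, across 9189 genes that are not independent replicates, was -0.115 to 0.152 in the inhibitor libraries, and 0.537 in DMSO 1, 0.129 in DMSO 2 and -0.493 in DMSO 3. Within a group the 3 deviations are not independent, since each is taken from the mean of all 3.

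**Figure D3:**
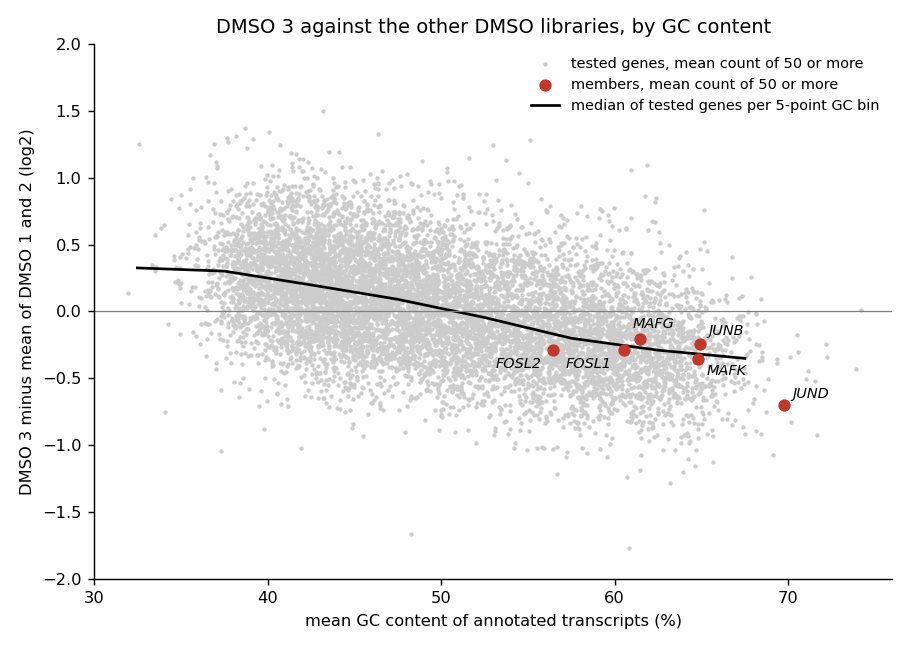
Difference of DMSO 3 from the mean of DMSO 1 and 2 (vertical axis, log2) against mean GC content of annotated transcripts (horizontal axis, percent) for 9189 tested genes in grey, their median per 5-point bin as a line, and the 6 AP-1 and small MAF genes with a mean count of 50 or more in red. The 6 genes lie on the GC-rich side, all below 0.

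With each library's GC trend removed and all 6 libraries kept, edgeR called 0 of the 8 genes, beside 6.49% of all tested genes, and 3 had an unadjusted p under 0.05, beside 22.5%. The log2 fold changes were then -0.13 for JUND, -0.10 for JUNB, -0.17 for FOSL1, -0.23 for FOSL2 and -0.37 for MAFK, each nearer to 0 than without the removal. FOSB was at 1.66, MAFG at 0.18 and FOS at 0.32, each farther from 0 than without the removal. With the trend removed and DMSO 3 left out as well, a setting chosen after the data had been seen, 3 of 8 passed beside 19.8% of all genes: FOSB at 2.30 (edgeR adjusted p = 0.00272), FOSL2 at -0.28 (0.0362) and MAFK at -0.38 (0.0461). JUND (-0.21, 0.239) and FOSL1 (-0.20, 0.207) did not. Limma-voom with library quality weights called 4 of 8, FOSB, FOSL1, FOSL2 and MAFK, beside 23.2% of all genes.

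Of the partner genes, ATF3 and BACH1 fell. ATF3, a stress-induced bZIP factor that pairs with JUN proteins, had 3.26, 4.10 and 3.12 CPM with inhibitor, against 17.4, 15.6 and 18.7 CPM with DMSO. The groups lay far apart. The edgeR log2 fold change was -2.29 (SE 0.182, adjusted p = 1.48e-05), and ATF3 passed with each library left out in turn. The other tested genes of the ATF, JDP and BATF families did not pass: ATF2 was at -0.22 (SE 0.145), ATF7 at 0.03 (SE 0.16), JDP2 at -0.47 (SE 0.392, on 8 to 22 counts per library) and BATF3 at -0.02 (SE 0.21). BATF and BATF2 had at most 6 counts. Of the 5 tested, 1 fell and none rose, beside 1.92% lower and 1.95% higher of all tested genes, and the median log2 fold change was -0.224.

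Among the CNC and BACH partners of small MAF, BACH1, the heme-regulated repressor of antioxidant genes, fell to 15.3, 15.7 and 14.0 CPM with inhibitor, against 20.4, 27.1 and 26.5 CPM with DMSO. All inhibitor values were lower. Its log2 fold change was -0.71 (SE 0.153, edgeR adjusted p = 0.0187), and it did not pass without any 1 of the inhibitor libraries (adjusted p = 0.102, 0.105 and 0.11) or without DMSO 2 (0.112). NFE2L2, the NRF2 gene, was at -0.34 (SE 0.181, adjusted p = 0.322), with 163, 167 and 180 CPM with inhibitor, against 177, 171 and 297 CPM with DMSO. DMSO 3 alone was high. NFE2L1 (0.01, SE 0.149) and NFE2L3 (-0.09, SE 0.143) did not pass, and NFE2 and BACH2 had at most 11 counts. Of these 4 tested genes 1 fell and none rose, beside 1.92% lower and 1.95% higher of all tested genes, with a median of -0.215 beside -0.00438. No large MAF gene had enough counts to be tested.

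A promoter window of each partner gene that fell holds a motif of this family, in capitals here. ATF3 holds TGACATCA (chr1:212565157-212565406, plus strand, the first of 2 windows). BACH1 holds TGAGTCA, the opposite strand of TGACTCA (chr21:29298672-29298921, plus strand, the second of 3). Their other windows held none of the searched motifs. TGACATCA was present in 2.37% of all promoter windows and TGACTCA in 4.2%. TGACNNNGC, searched as well, was present in 10.9%. Each share is for a single motif in a single window. The share of all genes that hold any searched motif in any of their windows was not computed. The sequences are from RefSeq, GRCh38.p14. Binding was not measured, and a link between motif and fall was not tested. Of the partner genes that were not tested, BATF2 held TGACATCA and BACH2 held TGACGTCA. Among fallen genes described below, DUSP10 held TGACATCA, HMGA1 held TGACNNNGC and HBEGF held no motif. LIF, VEGFA and SLC7A11 had no promoter sequence here. Of 14 AP-1 target genes with a sequence, 4 held TGACTCA. None of the 4 passed the edgeR test with all 6 libraries and the filter on low counts.
ATF3: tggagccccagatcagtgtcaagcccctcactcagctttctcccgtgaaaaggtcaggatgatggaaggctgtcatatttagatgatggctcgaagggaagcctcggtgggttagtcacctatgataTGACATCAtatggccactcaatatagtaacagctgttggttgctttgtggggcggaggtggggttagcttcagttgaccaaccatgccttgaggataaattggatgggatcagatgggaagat
BACH1: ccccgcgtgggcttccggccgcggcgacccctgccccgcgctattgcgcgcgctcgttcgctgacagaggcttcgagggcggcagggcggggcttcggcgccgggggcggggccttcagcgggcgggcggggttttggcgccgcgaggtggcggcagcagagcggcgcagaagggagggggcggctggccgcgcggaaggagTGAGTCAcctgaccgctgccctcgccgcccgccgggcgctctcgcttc

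Upstream, 1 of 15 tested genes of the JNK cascade fell and none rose, where 1.92% of all tested genes were lower and 1.95% higher, with a median log2 fold change of -0.015 (0.0448 with library totals only). DUSP10, which encodes a phosphatase of JNK and p38, had 69.2, 66.1 and 75.6 CPM with inhibitor, against 101, 96.9 and 95.1 CPM with DMSO, with no overlap. Its log2 fold change was -0.48 (SE 0.119, edgeR adjusted p = 0.0402). It passed when DMSO 3 was left out, and not without any other single library (adjusted p between 0.0588 and 0.241) or with library totals only (0.0608). By edgeR 0 of 9 tested genes for turnover and cofactors of AP-1 passed, 0 had an unadjusted p under 0.05, and the median was 0.0947; without DMSO 3, FBXW7, a ubiquitin ligase component that targets c-JUN, chosen after its value was seen, was higher by 0.55 (adjusted p = 0.00434).

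Of 19 tested genes known as AP-1 targets, 5 fell and none rose, beside 1.92% of all tested genes lower and 1.95% higher. The median of the 19 was -0.0127 (0.049 with library totals only), beside -0.00438 over all tested genes, and 9 had positive and 10 negative fold changes. LIF, a cytokine gene, had 40.3, 30.6 and 37.3 CPM with inhibitor, against 70.4, 64.6 and 53.9 CPM with DMSO (log2 fold change -0.80, SE 0.147, edgeR adjusted p = 0.00723). HBEGF, an EGFR ligand gene, had 407, 393 and 390 CPM with inhibitor, against 558, 538 and 779 CPM with DMSO (-0.65, SE 0.14, adjusted p = 0.0187). All inhibitor values were lower in both genes, and DMSO 3 was the lowest DMSO library for LIF and the highest for HBEGF.

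The angiogenic factor gene VEGFA (-0.51, edgeR adjusted p = 0.0255) and the chromatin protein gene HMGA1 (-0.49, adjusted p = 0.0176) also fell, and both were named after their values were seen. The interstitial collagenase gene MMP1, a textbook AP-1 target also chosen after its value was seen, had 40, 42 and 35 counts with inhibitor, against 59, 44 and 21 counts with DMSO, a log2 fold change of 0.01 (SE 0.255, adjusted p = 0.985). Of LIF, HBEGF, VEGFA and HMGA1, LIF alone passed without inhibitor 1, none passed without inhibitor 2 or without inhibitor 3, and LIF and HBEGF passed without DMSO 2. Without DMSO 3, 11 of the 19 passed, 4 higher and 7 lower, in a setting that called 10.8% of all genes higher and 11.1% lower.

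Of 16 tested genes known as targets of NRF2 and small MAF, 1 fell and none rose, with a median of -0.0634. Over all tested genes 1.92% were lower and 1.95% higher. SLC7A11, the cystine transporter gene that ATF4 also controls, had 58.0, 57.5 and 54.1 CPM with inhibitor, against 112, 80.1 and 84.8 CPM with DMSO (log2 fold change -0.71, SE 0.142, edgeR adjusted p = 0.013). The groups did not overlap, and it did not pass without any 1 of the inhibitor libraries (adjusted p = 0.0842, 0.101 and 0.0933). HMOX1, a target that BACH1 represses, was at -0.27 (SE 0.13, adjusted p = 0.271), and NQO1 at 0.10 (SE 0.124, adjusted p = 0.702), both chosen after their values were seen. Without DMSO 3, 1 of the 16 was higher and 5 were lower, beside 10.8% and 11.1% of all genes.

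**Figure D4:**
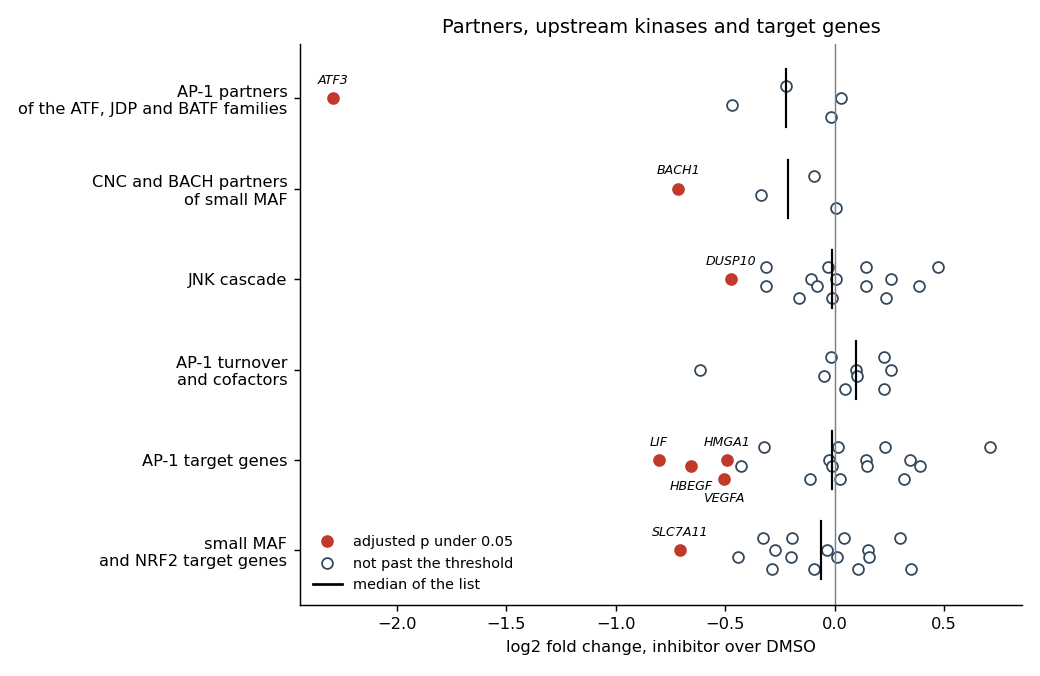
Log2 fold change of inhibitor over DMSO (horizontal axis) of the tested genes in 6 lists of partners, upstream kinases, cofactors and targets, each circle 1 gene, filled and named where the adjusted p was under 0.05, with a line at each list's median. The AP-1 target list is drawn without 1 gene, which its median includes. ATF3 lies at -2.29, and all filled circles lie below 0.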

How the data were processed

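Counts were analysed for 6 libraries of HT-1080 cells, 3 with inhibitor and 3 with DMSO, grouped by the sample titles. Each deposited file gives 1 raw count for each gene symbol, not normalized, as its whole-number values show. Per the labels' protocols, libraries were made with an Ion AmpliSeq whole-transcriptome amplicon panel and sequenced on the Ion Torrent platform. HTSeq, DESeq2 1.20.0 and hg19 are listed in the submitters' processing notes without a role, and no aligner is named. No molecular identifiers are named. The exact intervals of the JUN and MAFF count ratios cover counting error only, and those of the fitted fold changes also include variation between libraries.

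Genes were kept by filterByExpr (minimum count 10, minimum total 15) and tested with edgeR 4.0.16 in R 4.3.3: TMM scaling, quasi-likelihood test on intercept and group, Benjamini-Hochberg adjustment over all 11216 tested genes, threshold 0.05. CPM are TMM-scaled. The SE is the absolute log2 fold change over the square root of F, and 95% intervals use it with the fitted degrees of freedom. On the log2 scale 2 counts at mean depth were added. Alternatives used limma 3.58.1 and DESeq2 1.42.0, scaling, filters, a replicate block, each library left out, and removal of each library's GC trend (local regression, span 0.5, GENCODE transcripts on GRCh38, 98.9% of tested genes matched). These kinds of fit were tested on simulated counts.

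The genes and lists were chosen with earlier results of these data known. The rule named all 10 members, all tested ATF, JDP, BATF, CNC and BACH genes, and up to 3 called genes of each other list. Nearest profiles were to be named for called members, and there were none. COP1 and CXCL8 stand in the files for 2 older symbols of the lists. Some genes of the lists are counted in the totals and not reported here by name.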

Additional observations from a re-analysis of the deposited data

How the results depend on the processing

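With all libraries, no AP-1 or small MAF gene was called under DESeq2 size factors, library totals, a mean count of at least 50, DESeq2, limma-voom, the replicate block or removal of the GC trend. The count was 1 (1 FOS gene) with no filter on low counts, 4 (3 FOS and 1 small MAF gene) with library quality weights, 0 to 5 with a library left out (FOS 0 to 3, JUN 0 to 1, small MAF 0 to 1) and 3 (2 FOS and 1 small MAF gene) with the GC trend removed and DMSO 3 left out. Among all genes 831 were called with no filter, 2606 under quality weighting, 720 after GC trend removal, 99 to 2496 with a library left out, and 2227 with the GC trend removed and DMSO 3 left out, in place of 434.

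In the JNK cascade list the count was 0 with library totals and 0 with the replicate block. It was 3 under quality weighting (2 higher, 1 lower) and 2 after GC trend removal (1 higher, 1 lower). With a library left out it was 0 to 2. With the GC trend removed and without DMSO 3, a pair of changes chosen after seeing the data, it was 2 (1 higher, 1 lower). In the turnover list it was 2 with quality weights, 0 to 1 with a library left out and 2 with both changes, all of them higher. Targets of AP-1 gave 11 with quality weights (4 higher, 7 lower) and 0 to 11 with a library left out. With both changes they gave 8 (2 higher, 6 lower). Targets of NRF2 and small MAF gave 4 (1 higher, 3 lower), 0 to 6 and 4 (1 higher, 3 lower) in the same settings. The CNC and BACH list gave 0 to 1 with a library left out. The cause of these shifts was not tested.

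Of the members and the partner genes named in the text, 4 changed sign in some setting, and none of the 4 passed in any. Other genes of the lists also changed sign: with library totals 11 of the AP-1 targets were above 0 in place of 9, 8 turnover genes in place of 6, and 9 JNK cascade genes in place of 7. FOS lay between -0.060 and 0.50, ATF7 between -0.063 and 0.16, BATF3 between -0.18 and 0.10 and NFE2L1 between -0.15 and 0.12 with a library left out. ATF7 was at -0.078 with both changes. BATF3 was at 0.042 with library totals, 0.00050 with the replicate block and 0.0021 with the GC trend removed. NFE2L1 was at -0.0050 with DESeq2 size factors, -0.0079 with no filter, -0.0045 with a mean count of 50, -0.0049 with DESeq2, -0.068 with quality weights and -0.063 with both changes.

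Equal replicate numbers did not pair the libraries: deviations from the group means correlated at -0.0414, -0.0378 and -0.0882 for libraries 1, 2 and 3. With the replicate block 328 genes were called, DUSP10 did not pass (adjusted p = 0.0845) and VEGFA did not (0.0505). Depth limits FOS, FOSB, JUN and MAFF, with at most 35 counts per library.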
